A study of Mus musculus with 4 samples.

Results

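In all, 10 epithelial genes were followed in male tail tip fibroblasts, 5 keratins (*Krt7*, *Krt8*, *Krt18*, *Krt19* and *Krt80*) and 5 genes of cell adhesion and epithelial anchorage (*Cdh1*, *Epcam*, *Lad1*, *Dsp* and *Pkp1*). They are 10 of the 23924 genes listed, were chosen by symbol with the measured values in view, and ask which epithelial genes these cultures transcribed at all and which differed in transgenic cells. The highest wildtype library lay below the lowest transgenic library for *Krt18*, *Krt19* and *Krt80*, and the reverse held for *Lad1*. *Krt7* and *Pkp1* were between 0.368 and 1.32 FPKM with overlapping groups, *Cdh1*, *Epcam* and *Dsp* were detected by at most 11 reads in any library, and *Krt8* was listed at 0 throughout.

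The study sequenced polyadenylated RNA from 4 cultures, 2 of wildtype cells (WT, +/+) and 2 of hemizygous transgenic cells (TG, Tg2087/+). TG cells of the strain C57BL/6J-TgBAC8-2087 carry a bacterial artificial chromosome with the X-inactivation center, including *Xist* and its neighboring noncoding genes, in an autosome. All cells were from male mice of the same litter, all were immortalized with the SV40 large T antigen and all were tetraploid, the WT controls included, so nothing here describes primary fibroblasts. Neither the age of the animals was given nor whether WT 1 and WT 2, or TG 1 and TG 2, were separate mice, so the spread within a genotype may be technical. With 2 libraries per genotype, an exact two-sided permutation test of a single gene cannot go below p = 0.333.

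Keratins are the intermediate filament proteins of epithelial cells. They assemble as heteropolymers of a type I chain, such as *Krt18* or *Krt19*, with a type II chain, such as *Krt7*, *Krt8* or *Krt80*, and simple epithelia are known for *Krt8* paired with *Krt18*. Keratin filaments are fastened to desmosomes, and neighboring cells are held together by cadherins at adherens junctions. Fibroblasts are mesenchymal cells whose main intermediate filament protein is vimentin, and the Zeb and Snail transcription factors are known to bind E-boxes and to repress epithelial genes in such cells.

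The libraries held between 9465712 and 14639946 reads, with WT 1 the shallowest and WT 2 the deepest. *Xist* was at 0 and 0.108 FPKM in WT and at 2.31 and 2.28 FPKM in TG, in the direction of the labels. Of 12 fibroblast markers, 9 had a mean of at least 1 FPKM, among them *Col1a1*, *Thy1* and *S100a4*, while *Lum* was listed at 0 and *Dcn* did not exceed 0.878 FPKM. Of 10 tested fibroblast markers, 8 were lower in TG without overlap of the groups, where 20.3% of all tested genes were. None was called by limma, where 0.607% of all tested genes were called higher and 0.469% lower. By voom on recovered reads 1 (*Pdgfrb*) was called lower (1.31% of all genes). At an unadjusted p under 0.05 and past the fold limit of 1 on the log2 scale, 1 (*Pdgfra*) was higher (3.57% of all genes). The fibroblast markers summed to 4292 and 4454 FPKM in WT and to between 3397 and 3466 FPKM in TG. Of 10 keratinocyte markers, 6 were listed at 0, including *Krt5*, *Krt14* and *Krt15*, the basal keratins, and their summed level ranged from 2.89 to 4.20 FPKM in WT and from 1.83 to 3.38 FPKM in TG. The part of either marker list in the keratin values was not tested. In cultures of this kind, a change in the number of cells that express a gene and a change in RNA per cell cannot be told apart.

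Upstream sequence is shown for 3 of the genes because it places the E-box letters beside 3 different levels in the same cells. *Krt18* is expressed and higher in TG, *Krt8* is listed at 0 and *Epcam* is at the edge of detection. The letters searched were CAGGTG and CACCTG, which are the same motif read on opposite strands, in the 250 bases before each RefSeq transcription start on GRCm38.p6. Windows were found for 6 of the 10 genes, and *Cdh1*, *Krt19*, *Krt80* and *Pkp1* were not matched. The sequences run 5′ to 3′ along the gene, end at the base before the start, and carry the motif in capitals.
*Krt18*, chr15:102027966-102028215, plus strand: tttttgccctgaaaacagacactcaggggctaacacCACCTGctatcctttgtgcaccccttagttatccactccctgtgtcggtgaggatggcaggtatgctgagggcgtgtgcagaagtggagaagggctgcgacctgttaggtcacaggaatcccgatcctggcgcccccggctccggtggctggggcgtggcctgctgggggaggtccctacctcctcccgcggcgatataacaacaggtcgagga
*Krt8*, chr15:102004343-102004592, minus strand: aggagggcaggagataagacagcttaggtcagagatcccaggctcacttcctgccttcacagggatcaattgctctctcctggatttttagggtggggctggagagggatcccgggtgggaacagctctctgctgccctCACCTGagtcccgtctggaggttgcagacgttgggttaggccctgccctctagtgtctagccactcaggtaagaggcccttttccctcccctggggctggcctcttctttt
*Epcam*, chr17:87635729-87635978, plus strand: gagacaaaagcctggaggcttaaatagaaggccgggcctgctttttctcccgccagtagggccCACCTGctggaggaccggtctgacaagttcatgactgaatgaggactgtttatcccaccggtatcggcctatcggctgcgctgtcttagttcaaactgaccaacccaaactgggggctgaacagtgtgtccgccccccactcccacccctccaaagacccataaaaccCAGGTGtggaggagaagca
The motif began 214 bases before the start of *Krt18*, 111 bases before that of *Krt8* and 187 and 19 bases before that of *Epcam*. It was also found 44 bases before the start of *Krt7*, and the windows of *Lad1* and *Dsp* held no match to these letters. In all, 4 of 6 windows held it, against 17.2% of all promoter windows of the same length. A match is a string of letters and was not shown to be bound in these cells.

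*Krt18*, a type I keratin of simple epithelia (chr15:102028216-102032026, GRCm38), was at 1.10 and 2.24 FPKM in WT 1 and WT 2 and at 11.5 and 12.2 FPKM in TG 1 and TG 2. FPKM is the number of fragments scaled to gene length in kilobases and to library size, so levels can be set side by side between genes. The values rested on 13 and 41 reads in WT and 172 and 169 reads in TG. The TG libraries lay close together and far above WT, while the WT libraries differed from each other. The log2 fold change of TG against WT was 2.56 with a standard error (SE) of 0.29, on the log2(FPKM + 0.5) scale, which understates changes of low genes, and the mean FPKM was 7.12 times as high in TG.

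*Krt19*, a small type I keratin that lacks most of the tail domain (chr11:100140810-100145926), was the highest of the 10 genes in both genotypes. It was at 3.17 and 3.18 FPKM in WT and at 15.3 and 22.0 FPKM in TG, from 38, 59, 231 and 308 reads in the same order. Here the WT libraries were alike and the TG libraries were spread, again without overlap. The log2 fold change was 2.36 with an SE of 0.24.

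*Krt80*, a type II keratin of differentiating epithelia (chr15:101348315-101370162), was at 2.03 and 2.39 FPKM in WT and at 6.41 and 7.99 FPKM in TG. Both TG libraries were above both WT libraries, and the log2 fold change was 1.50 with an SE of 0.26. Of its 50-base stretches, 3.88% also stand, on either strand, in transcripts of other genes, *Gm35853* and *Prdx6*. The kit kept strand, but whether the counting used it is not given, so reads of these shared stretches cannot be told apart.

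*Krt7*, a type II keratin of ductal and other simple epithelia (chr15:101412403-101427806), was at 0.368 and 0.618 FPKM in WT and at 0.467 and 1.32 FPKM in TG. The groups overlapped, and the higher TG value came from TG 2 alone, with 21 reads against 8 in TG 1. The log2 fold change was 0.43 with an SE of 0.46, and without TG 2 it was -0.03.

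*Krt8*, the usual type II partner of *Krt18* (chr15:101996711-102004342), was listed at 0 FPKM in all 4 libraries. It lies 23.87 kb from *Krt18*, which was counted in every library. A listed 0 in this matrix need not mean absent RNA. *Ndufs5*, *Eif3j1* and *Eif3j2*, genes that every cell uses and which were chosen here after their values were seen, were also at 0 throughout. Zeros were few in these families, with 1 of 49 genes of respiratory complex I and 4 of 57 genes named as translation initiation factors at 0. The 4 were *Eif3j1*, *Eif3j2*, *Eif4e1b* and *Eif2c5*. They were taken by name, so they need not all be genes that every cell uses. Of the 55 keratin genes, 45 were at 0. Of the 50-base stretches of the longest coding transcript of *Krt8*, 29.7% also stand in transcripts of other genes, mainly the pseudogene *Krt8-ps*, against 31.1% for *Ndufs5*, 54.8% for *Eif3j1* and 0.72% for *Krt18*. *Gapdh*, with 82.5% shared, was listed at 9.96 to 20.1 FPKM. *Actb*, whose shared part was not determined, was between 6179 and 6507 FPKM. Whether shared sequence set the value of *Krt8* was not tested.

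**Figure D1:**
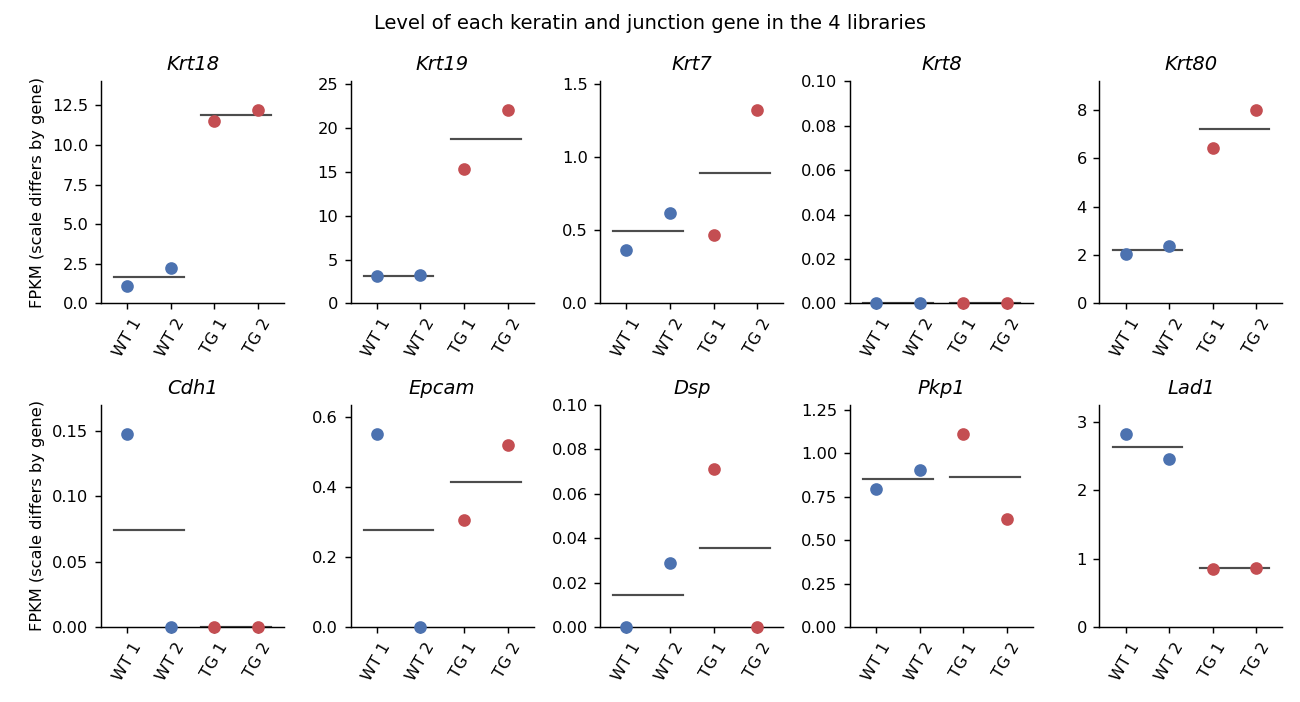
Level in FPKM (vertical axis, scale set per gene and starting at 0) of each of the 10 genes in WT 1, WT 2, TG 1 and TG 2 (points), with the mean of each genotype as a line. *Krt18*, *Krt19* and *Krt80* are higher in both TG libraries, *Lad1* is lower in both, *Krt8* is at 0 throughout and the others overlap.

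Among the 5 keratins followed, the 2 types did not stand in equal amounts in these values. The type I keratins *Krt18* and *Krt19* summed to 4.27 and 5.42 FPKM in WT and to 26.8 and 34.2 FPKM in TG. The type II keratins *Krt7*, *Krt8* and *Krt80* summed to 2.40 and 3.01 FPKM in WT and to 6.88 and 9.31 FPKM in TG, with *Krt8* contributing 0. The ratio of these type I to these type II keratins was thus 1.78 and 1.80 in WT and 3.90 and 3.67 in TG, close within each genotype. The type II sum, the ratio and the comparison with *Vim* all take *Krt8* as listed, and how they would stand with uncounted *Krt8* reads was not tested. *Krt10*, a further type I keratin, was at 2.45 and 2.11 FPKM in WT and at 1.94 and 1.40 FPKM in TG. It and other keratins outside the 5 were left out of the sums, and how the ratio would stand with them was not tested. All 5 keratins together amounted to 0.295% and 0.392% of the level of *Vim*, the vimentin gene, in WT and to 1.32% and 1.85% in TG. *Vim* itself was between 2147 and 2547 FPKM in all libraries, so keratin transcripts were few beside those of vimentin in both genotypes.

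**Figure D2:**
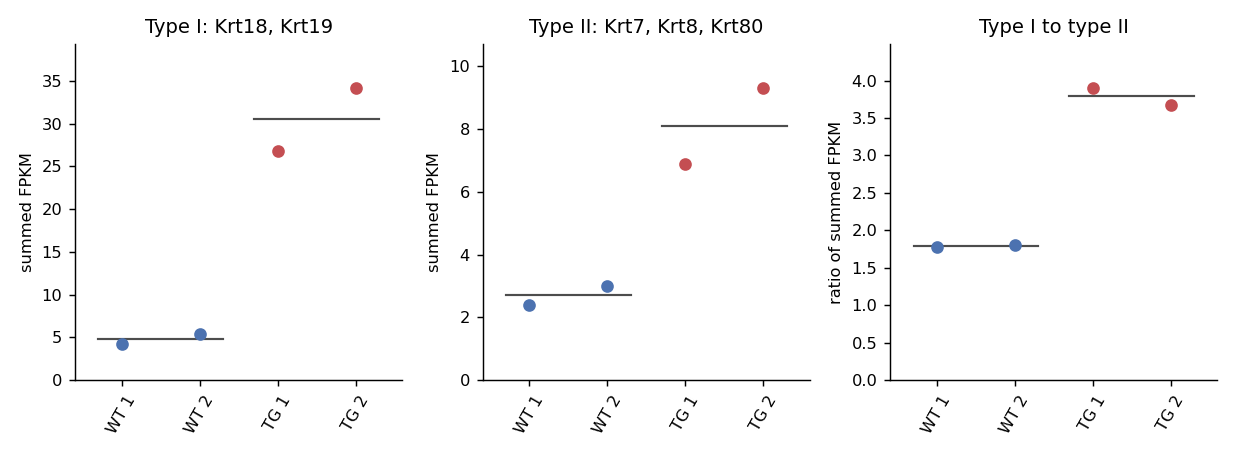
Summed FPKM of *Krt18* and *Krt19* (type I, left panel), of *Krt7*, *Krt8* and *Krt80* (type II, middle panel) and their ratio (right panel) by library. All vertical axes start at 0, and lines are at the genotype means. The ratio is near 1.8 in both WT libraries and above 3.6 in both TG libraries, and *Krt8* adds 0 to the type II sum.

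The junction genes gave a different picture, and none of the 5 was higher in both TG libraries. *Cdh1*, the E-cadherin of adherens junctions (chr8:106603350-106670247), was at 0.148 FPKM in WT 1, from 6 reads with an exact 95% Poisson interval of 0.0543 to 0.322 FPKM, and at 0 in the other 3 libraries. A count of 0 there allows up to 0.0478 FPKM in WT 2, 0.0587 FPKM in TG 1 and 0.0633 FPKM in TG 2, each taken as 3 reads. The upper bounds of the exact 95% Poisson interval are wider, at 0.0588, 0.0722 and 0.0779 FPKM in the same order. These intervals and limits cover counting error only. E-cadherin RNA was thus detected in WT 1 alone, by few reads.

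*Epcam*, an epithelial adhesion molecule of the cell surface (chr17:87635979-87651127), was at 0.553 and 0 FPKM in WT and at 0.307 and 0.520 FPKM in TG. The read counts were 10, 0, 7 and 11, and the groups overlapped. The 0 of WT 2, the deepest library, allows up to 0.107 FPKM, below the lower Poisson bound of 0.265 FPKM in WT 1, so the WT libraries differed from each other by more than counting error.

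*Dsp*, the desmosomal plakin that ties keratin filaments to the plaque (chr13:38151294-38198577), was at 0 and 0.0289 FPKM in WT and at 0.0711 and 0 FPKM in TG, from at most 8 reads. *Pkp1*, a desmosomal armadillo protein of stratified epithelia (chr1:135871394-135919207), was at 0.794 and 0.907 FPKM in WT and at 1.11 and 0.620 FPKM in TG, with both TG libraries outside the WT range in opposite directions. Its log2 fold change was -0.01 with an SE of 0.40, so that changes of about that size in either direction were within the error.

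*Lad1*, which encodes ladinin of the epithelial basement membrane zone (chr1:135818598-135833341), was at 2.82 and 2.45 FPKM in WT and at 0.855 and 0.858 FPKM in TG. The read counts were 76 and 102 in WT and 29 and 27 in TG, the groups did not overlap, and the log2 fold change was -1.21 with an SE of 0.33. It was the second highest of the 10 genes in WT and the sixth in TG.

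In WT, the order of mean level was *Krt19*, *Lad1*, *Krt80*, *Krt18*, *Pkp1*, *Krt7*, *Epcam*, *Cdh1*, *Dsp* and *Krt8*, with the ranges of *Krt80* and *Krt18* and those from *Krt7* downwards overlapping their neighbors. In TG, *Krt19*, *Krt18* and *Krt80* led with ranges apart from each other, and *Krt7*, *Pkp1* and *Lad1* followed within overlapping ranges, between means of 0.857 and 0.894 FPKM. Of the 10 genes, 4 had a mean of at least 1 FPKM, against 44.6% of all genes listed. Among the 55 keratin genes of the matrix, 45 were listed at 0 in every library and 4 reached a mean of 1 FPKM, namely *Krt18*, *Krt19*, *Krt80* and *Krt10*.

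Differences between TG and WT were fitted with limma over the 11524 genes with a mean of at least 0.5 FPKM, and a gene was called where its Benjamini-Hochberg adjusted p was under 0.01 and its log2 fold change was 1 or more, or -1 or less. Of the 10 genes, 6 passed the filter on low values, and *Krt8*, *Cdh1*, *Epcam* and *Dsp* did not. *Krt18* and *Krt19* were called higher and none was called lower, where 0.607% of all tested genes were called higher and 0.469% lower. At an adjusted p under 0.05 with the same fold limit, *Krt80* was called higher as well, where 1.99% of all genes were called higher and 1.05% lower. Without WT 1 or without WT 2 the calls of *Krt18* and *Krt19* were lost, with log2 fold changes of 2.18 and 2.95 for *Krt18* and 2.36 in both cases for *Krt19*. They were also lost with all genes above 0 in the fit, without a variance trend and with replicate number as a block. The 10 genes were chosen with these values known, so the calls describe them and say nothing more about the group. At an unadjusted p under 0.05 and the same fold limit, 3 of the 6 were higher and *Lad1* was lower, where 3.57% and 1.84% of all genes were. Of the 6 tested genes, 3 were higher and 1 was lower in both TG libraries without overlap, where 30.2% and 20.3% of all tested genes were. The groups of *Cdh1*, *Epcam* and *Dsp* overlapped, where 12.0% of all genes under the filter were higher and 11.8% lower without overlap.

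**Figure D3:**
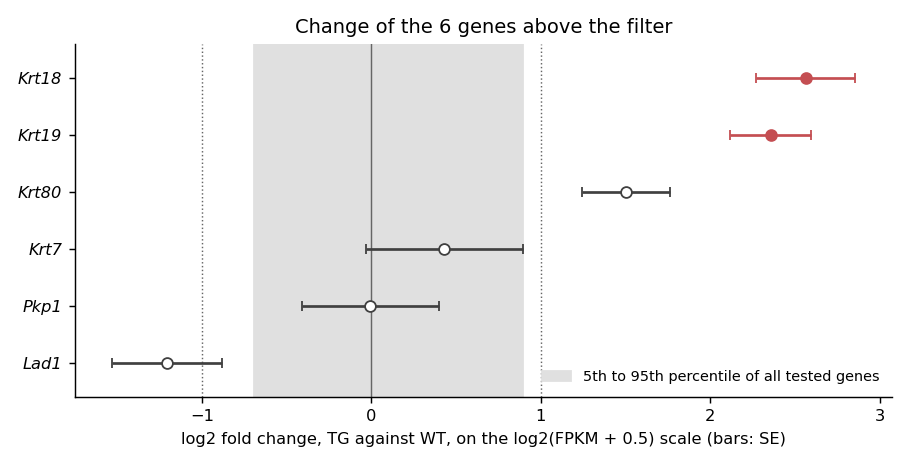
Log2 fold change of TG against WT with its SE (bars) for the 6 genes above the filter on low values, on the log2(FPKM + 0.5) scale. Filled red points are the 2 genes called, the gray band spans the 5th to the 95th percentile of all tested genes (-0.69 to 0.89), the dotted lines mark log2 fold changes of -1 and 1, and *Krt7* and *Pkp1* lie inside the band.

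The genes were then placed beside their neighbors. *Lad1* and *Pkp1* flank *Tnnt2*, the cardiac troponin T gene on chromosome 1. The study itself had named *Tnnt2* and *Lmod1* as clustered genes lower in TG, from these same libraries. Their values below restate that choice and are no separate evidence about *Lad1*. *Lad1* ends 2.973 kb before *Tnnt2*, and *Pkp1* begins 19.12 kb after it. *Tnnt2* was at 51.2 and 58.6 FPKM in WT and at 23.2 and 25.0 FPKM in TG, a log2 fold change of -1.17 with an SE of 0.18 and a limma adjusted p of 0.00665. *Lmod1*, a smooth muscle leiomodin 450.5 kb from *Lad1*, fell from 45.8 and 45.1 FPKM to 14.7 and 15.1 FPKM, a log2 fold change of -1.57 at an adjusted p of 0.0012. Between *Lmod1* and *Lad1*, *Ipo9*, *Nav1*, *Csrp1* and *Phlda3* had log2 fold changes between -0.19 and -0.02, and *Shisa4* was higher by 0.63 with an adjusted p of 0.0677. The lower values were therefore not continuous along the stretch, and *Pkp1* on the far side of *Tnnt2* had overlapping groups.

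**Figure D4:**
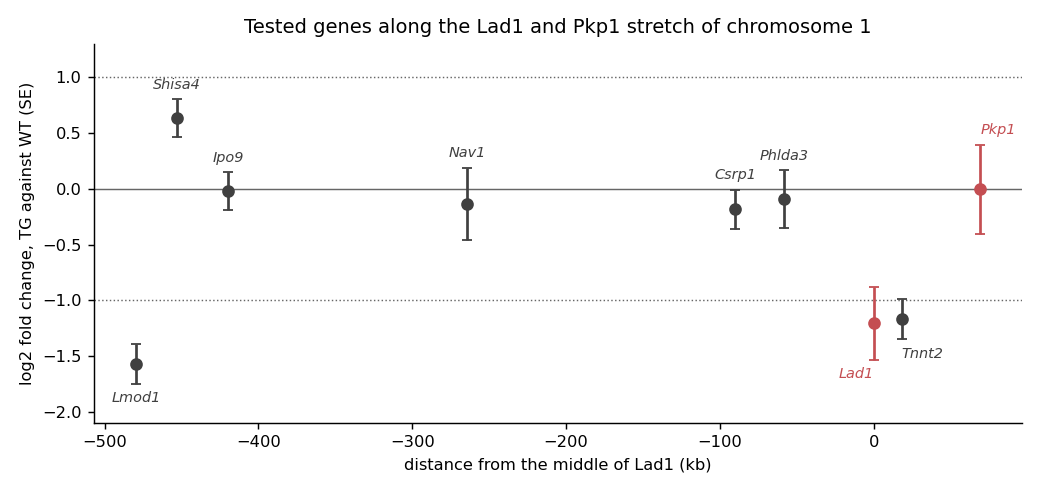
Log2 fold change of TG against WT with its SE (vertical axis) for the tested genes between *Lmod1* and *Pkp1*, by distance from the middle of *Lad1* in kb (horizontal axis). *Lad1* and *Pkp1* are in red, *Lmod1*, *Lad1* and *Tnnt2* lie below -1, and *Pkp1* lies at 0.

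The keratins that were higher stood at 3 places. *Krt80* and *Krt7* lie 42.24 kb apart on chromosome 15 with log2 fold changes of 1.50 and 0.43, *Krt8* and *Krt18* lie 568.9 kb further on, and *Krt19* is on chromosome 11. The nearest tested gene on the far side of *Krt18* was *Eif4b*, a translation initiation factor, with a log2 fold change of 0.25 (SE 0.17). Beside *Krt19*, *Krt13* at 19.24 kb was at 0.133 and 0.387 FPKM in WT and at 0.792 and 0.740 FPKM in TG, a log2 fold change of 0.76 with an SE of 0.45 and an adjusted p of 0.399. *Eif1* on its other side had a log2 fold change of -0.01.

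To set the 10 genes against the rest of the epithelial program, 107 other epithelial genes of 9 lists were examined. Of these, 34 were listed at 0 throughout, 30 had a mean of at least 1 FPKM and 37 were tested. None was called in either direction by limma, where 0.607% of all tested genes were called higher and 0.469% lower. At an unadjusted p under 0.05 and the same fold limit, 2 were higher (*Cgnl1* and *Sprr1a*) and 0 were lower, where 3.57% and 1.84% of all genes were, and voom on recovered reads, which called 1.08% of all genes higher and 1.31% lower, called *Cgnl1* higher. The median log2 fold change of the 37 genes was 0.02, against 0.07 over all tested genes, and 10 of them were higher and 10 lower in both TG libraries, where 30.2% and 20.3% of all tested genes were. In the main fit no gene of this wider group was thus called beside *Krt18* and *Krt19*. With so few of all genes called, 0 calls among 37 genes say little about the group.

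Among the other keratins, 5 of 8 simple epithelial and 11 of 14 stratified and skin keratins were listed at 0. *Krt10*, a type I keratin of the upper epidermis, was at 2.45 and 2.11 FPKM in WT and at 1.94 and 1.40 FPKM in TG, a log2 fold change of -0.37 at an adjusted p of 0.582. *Krt78* and *Krt17* were below the filter and above WT in both TG libraries. *Krt78* was at 0 and 0.0624 FPKM in WT and at 0.408 and 0.330 FPKM in TG, while *Krt17* rested on 1 read in each TG library and 0 in WT. The other keratins of these lists that were above 0 and under the filter had overlapping groups.

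Desmosome genes were led by *Jup*, the plakoglobin shared by desmosomes and adherens junctions, at 30.6 and 32.8 FPKM in WT and at 22.5 and 13.4 FPKM in TG. Its log2 fold change was -0.85 with an SE of 0.24 and an adjusted p of 0.081. *Pkp2*, a plakophilin that also occurs outside epithelia, was at 18.5 and 14.2 FPKM in WT and at 13.4 and 8.31 FPKM in TG (log2 fold change -0.59, adjusted p 0.229), and *Pkp4* had a log2 fold change of 0.02. Of the desmosomal cadherins, *Dsc3*, *Dsg2* and *Dsg3* were listed at 0 and *Dsc2* did not exceed 0.200 FPKM. Of the 9 cornified envelope genes, 2 were tested, *Sfn* with a log2 fold change of -0.37 and *Sprr1a*, which was at 0 in both WT libraries and at 0.393 and 1.83 FPKM in TG (3 and 13 reads, adjusted p 0.161).

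At an adjusted p under 0.05 and past the fold limit, 1.99% of all tested genes were called higher and 1.05% lower. Among the 37 tested genes of the 9 lists 1 was called, in the adherens junction list. This gene, *Cgnl1*, which encodes the junctional linker paracingulin, was at 3.12 and 3.98 FPKM in WT and at 9.18 and 12.0 FPKM in TG, a log2 fold change of 1.45 with an SE of 0.25 and an adjusted p of 0.0106. *Cdh3*, the P-cadherin, was at 52.7 and 61.1 FPKM in WT and at 34.2 and 31.1 FPKM in TG, a log2 fold change of -0.79 at an adjusted p of 0.0372, under the fold limit. On the FPKM scale these cultures thus held far more *Cdh3* than *Cdh1* transcripts. The catenins *Ctnna1*, *Ctnnb1* and *Ctnnd1*, which bind cadherins at adherens junctions, were between 65.3 and 154 FPKM with log2 fold changes between -0.08 and 0.04.

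The next lists are short, and limma called only 0.607% of all tested genes higher and 0.469% lower, so their 0 calls say little. In the tight junction list, 7 of 17 genes were tested and 0 were called. The scaffolds *Tjp1* and *Pard3* had log2 fold changes of -0.02 and 0.04. In the hemidesmosome list 6 of 9 were tested and 0 were called, with *Cd151*, *Plec* and *Dst* between -0.19 and 0.26. In the list of surface and apical proteins 4 of 14 were tested and 0 were called, with *Cd24a*, *Spint2* and *Muc1* between 0.02 and 0.64. Among epithelial transcription and splicing factors, 3 of 16 were tested. *Klf5*, a Krüppel-like factor of proliferating epithelia, was at 34.6 and 40.7 FPKM in WT and at 51.7 and 65.7 FPKM in TG (log2 fold change 0.63, adjusted p 0.104), while *Klf4* and the splicing factor *Esrp2* had log2 fold changes of -0.60 and -0.71.

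**Figure D5:**
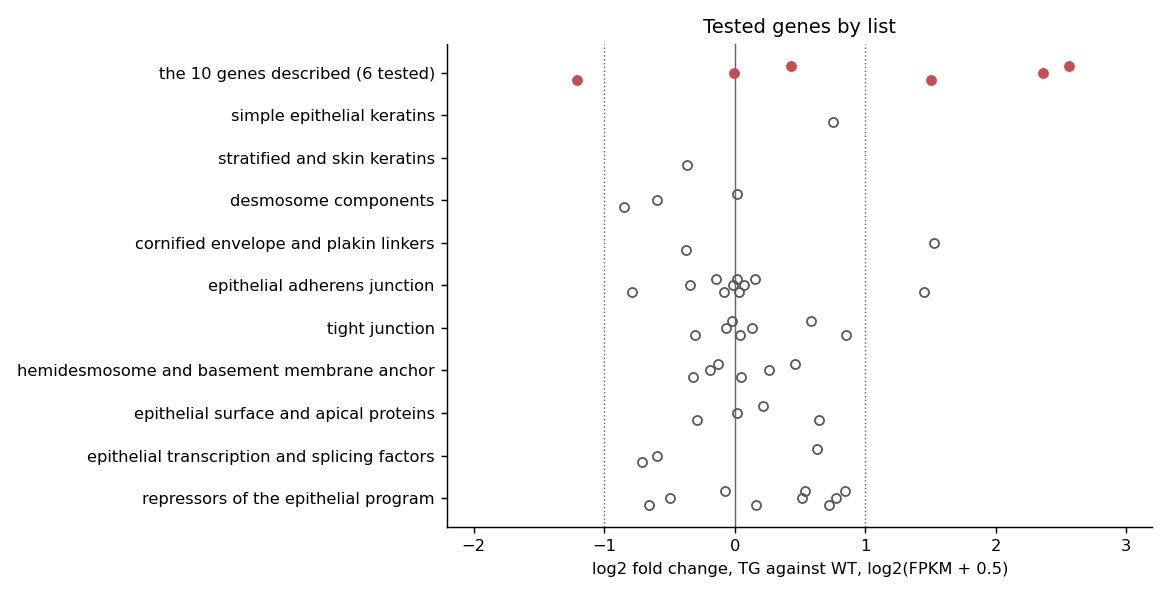
Log2 fold change of TG against WT for each tested gene (points) of the 10 genes described (red), of the 9 lists of other epithelial genes and of the repressors (one row per list, points shifted vertically for visibility), with dotted lines at -1 and 1. The points outside the dotted lines are *Krt18*, *Krt19*, *Krt80*, *Lad1*, *Sprr1a* and *Cgnl1*.

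Another 36 epithelial genes of the lists were above 0 but under the filter, none with a mean over 0.434 FPKM. Of these, 9 (25.0%) were above WT in both TG libraries and 2 (5.56%) were below, where 12.0% and 11.8% of all 4006 genes in that range were. Among the 9, *Elf3*, an epithelial ETS factor, was at 0 and 0.0369 FPKM in WT and at 0.498 and 0.244 FPKM in TG, and *Cldn4*, a claudin of simple epithelia, was at 0.127 and 0.0411 FPKM in WT and at 0.454 and 0.489 FPKM in TG. The 2 below WT were *Spint1* and *Itgb4*. *Spint1* was at 0.547 and 0.739 FPKM in WT and at 0.237 and 0.213 FPKM in TG. *Itgb4* was at 0.175 and 0.204 FPKM in WT and at 0.111 and 0.0751 FPKM in TG. *Elf3* and *Cldn4* were singled out after their values were seen. None of these genes was tested, and their counts are small.

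Of the 10 repressors of the epithelial program, 9 had a mean of at least 1 FPKM. Of 9 tested, 0 were called in either direction by limma at either threshold or by voom. At an unadjusted p under 0.05 with the fold limit 0 were as well. Over all tested genes, 0.607% were called higher and 0.469% lower in the main fit. No share exceeded 3.57% in either direction under the other tests, so 0 of 9 says little. *Zeb1* was at 5.60 and 6.90 FPKM in WT and at 11.3 and 9.96 FPKM in TG, a log2 fold change of 0.72 at an adjusted p of 0.102. *Zeb2* was at 5.73 and 7.48 FPKM in WT and at 5.41 and 3.72 FPKM in TG, a log2 fold change of -0.50 at an adjusted p of 0.335. The values of the paralogs lay in opposite directions, and neither passed the test.

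*Snai1* ranged from 39.8 to 56.3 FPKM over the 4 libraries, with a log2 fold change of 0.17, and *Snai2* was at 14.4 and 19.8 FPKM in WT and at 9.36 and 11.9 FPKM in TG, a log2 fold change of -0.65 at an adjusted p of 0.145. *Snai3* was below the filter, at no more than 0.285 FPKM. *Twist2* was at 34.7 and 30.5 FPKM in WT and at 57.8 and 54.3 FPKM in TG, a log2 fold change of 0.78 at an adjusted p of 0.0372, under the fold limit. *Twist1*, *Tcf4* and *Foxc2* were also higher in both TG libraries, with log2 fold changes of 0.54, 0.51 and 0.85 and adjusted p of 0.144, 0.174 and 0.113, and *Prrx1* had a log2 fold change of -0.08. Of the 9 tested repressors, 5 were thus higher and 3 lower in TG without overlap, where 30.2% and 20.3% of all tested genes were. Among the mesenchymal filament genes, 5 of 8 were tested, with *Vim*, *Lmna* and *Lmnb1* at log2 fold changes of 0.15, 0.59 and 0.03. By limma, by voom or at an unadjusted p under 0.05 with the fold limit, 0 were called. The shares of all genes given for the repressors apply here too, so 0 of 5 says little.

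Among markers of other cell types that a tail tip could hold, *Cd68* and *Acta1* exceeded the sum of the 5 keratins in both WT libraries. Endothelial markers summed to at most 0.567 FPKM in WT and 0.126 FPKM in TG, with 2 of 6 at 0. *Cd68*, at 5.12 to 12.1 FPKM, made up nearly all of the macrophage sum, with 3 of 6 markers at 0, and that sum was 8.95 and 12.3 FPKM in WT and was 5.21 and 11.4 FPKM in TG. *Mitf*, at 0.504 and 0.421 FPKM in WT and at 1.87 and 2.25 FPKM in TG, made up most of the melanocyte sum (0.504 and 0.660 FPKM in WT, 2.04 and 2.25 FPKM in TG, with 3 of 6 markers at 0) and had a log2 fold change of 1.41 at an adjusted p of 0.0592, and voom called it higher. *Acta1* made up nearly all of the skeletal muscle sum (11.1 and 9.76 FPKM in WT, 5.07 and 5.21 FPKM in TG, with 3 of 6 markers at 0), with a log2 fold change of -0.95 and an adjusted p of 0.0374. The Schwann cell markers summed to 1.32 and 1.33 FPKM in WT and to 1.48 and 2.16 FPKM in TG, with 1 of 5 at 0. The part of any of these cells in the keratin values was not tested.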

How the data were processed

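RNA was extracted from immortalized tail tip fibroblasts, and strand-specific, size-selected libraries of polyadenylated RNA were sequenced from both ends. Rsubread was used by the authors for alignment to mm10 (GRCm38), and their gene counts were turned into FPKM. The deposited matrix holds these FPKM values, 1 column per library. Read counts are not in that matrix. Whole reads were recovered from the FPKM ratios between libraries for 15519 of 15530 genes above 0 (99.929%), with an effective length 149 bases under the exonic length, and summed to between 98.81% and 98.89% of each library total. The depth sets the limits of detection, taken as 3 reads.

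TG was compared with WT on log2(FPKM + 0.5) over genes whose mean FPKM was 0.5 or more, with the moderated statistics of limma 3.58.1 (R 4.3.3) and a mean-variance trend. P-values were two-sided and adjusted over all tested genes by Benjamini-Hochberg. The thresholds are those of the study. The fit and voom on recovered reads were tested on simulated data. Changes were simulated only in genes with more reads than *Krt7* had, so no conclusion is drawn from it for genes of few reads. Poisson intervals were made with scipy 1.17.1 in Python 3.11.15. The 10 genes were chosen, and the 18 lists written from general knowledge, with earlier results of these data known. Named genes are the 10 genes, the genes called and the 3 highest of each list, all repressors, *Xist*, and *Lmod1*, *Tnnt2* and the tested genes between them. A gene that this rule names is not reported here. Others are named as chosen after their values were seen, or as neighbors or as markers. Stretches of 50 bases were compared with GENCODE M21 transcripts on both strands, and promoter sequences are from RefSeq on GRCm38.p6. The alternatives were other pseudocounts, filters, scalings and thresholds, no variance trend, a replicate block, leaving out each library, and voom.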

Additional observations from a re-analysis of the deposited data

How the results depend on the processing

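Over the alternatives tried, the log2 fold changes of *Krt18* ranged from 2.18 to 2.95, those of *Krt19* from 2.10 to 2.61, those of *Krt80* from 1.35 to 1.66 and those of *Lad1* from -1.65 to -0.97, with no change of direction. The number of the 10 genes called higher was 2 in the main fit, and 0 with all genes above 0, 0 without a variance trend and between 0 and 2 when a library was left out, being 0 without WT replicate 1 and 0 without WT replicate 2. Leaving out a WT library leaves that genotype with a lone library, assumed to vary like the others. With replicate number as a block (replicate block) it was 0. The labels do not say that equal numbers mark a shared origin, and the deviations of same-numbered libraries correlated at -0.028, so the numbers were not taken to pair the libraries. *Krt80* was called higher by voom. Of the other epithelial genes, 0 were called higher in the main fit, 1 at an adjusted p under 0.05 and 1 by voom. Over all tested genes these shares were 0.607%, 1.99% and 1.08%. *Krt7* ranged from -0.027 to 0.89 when a library was left out, and turned only without TG replicate 2. *Pkp1* ranged from -0.27 to 0.26 when a library was left out, and was 0.000303 with a pseudocount of 1. The cause of these changes was not tested.

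Over all genes, 54 were called lower and 70 higher. These numbers became 1 and 0 with all genes above 0, 6 and 3 without a variance trend, 8 and 12 with the replicate block, 1 and 0 without WT replicate 1, 2 and 7 without WT replicate 2, 121 and 229 at an adjusted p under 0.05 and 151 and 125 by voom. Upper-quartile scaling gave 53 and 47, quantile normalization 55 and 47, and leaving out TG replicate 1 gave 47 and 47. Depth limits *Krt7*, *Cdh1*, *Epcam* and *Dsp*, which had at most 21 reads in any library.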
